A study of Homo sapiens with 9 samples.

Results

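The 10 genes described here make, methylate or remove the cap of messenger RNA, or handle the methylated adenosine next to it: PCIF1, RNGTT, RNMT, RAMAC, CMTR1, CMTR2, METTL4, FTO, DCP2 and NUDT16. They were taken by name from the 58336 genes of a PRO-seq table, and all 10 were found. PRO-seq (precision run-on sequencing) counts RNA polymerases engaged in transcription, because permeabilized cells extend their nascent RNA with a labelled nucleotide. The cells were MEL624, a human melanoma line. In 2 of the 3 groups PCIF1 had been knocked out. Each of these is a single clone, labelled PCIF1 KO1 and PCIF1 KO2 and named clone 1 and clone 2 below. The third group was the control, wild-type MEL624 cells carrying a random single guide RNA. Each group had 3 libraries labelled as replicates. The sources used here give neither the guide that targeted PCIF1 nor the alleles of the clones.

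The cap is added to nascent RNA soon after transcription starts. RNGTT removes the terminal phosphate and attaches an inverted guanosine, RNMT with its activating subunit RAMAC methylates that guanosine, and CMTR1 and CMTR2 methylate the ribose of the first and the second transcribed nucleotide. Where the first nucleotide is adenosine, PCIF1, which binds the phosphorylated tail of RNA polymerase II, adds a further methyl group at the N6 position and so makes m6Am. METTL4 is an N6 methyltransferase known for an internal m6Am of the U2 small nuclear RNA. FTO can take the N6 methyl group off m6Am and m6A, and DCP2 and NUDT16 are decapping enzymes of the Nudix family.

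PCIF1 acts on transcripts whose first base is A, so the annotated starts of these genes are shown first. The RefSeq promoter table (GRCh38.p14) matched 9 of the 10 genes with 11 starts; RNMT was not matched. Of the 11 starts, 3 had A as first base (RAMAC, the upstream start of CMTR2 and the upstream start of NUDT16). G was the first base at 5 (PCIF1, RNGTT, CMTR1, FTO and the downstream start of CMTR2) and C at 3 (METTL4, DCP2 and the downstream start of NUDT16). Over all 35116 promoters of that table, 44.4% had A, 33.6% G and 14.7% C at this position. An annotated start need not be the one used in these cells, and the deposited values sum over all starts of a gene. Below are the 60 bases before the start, the start base itself and the 9 bases after it, 5′ to 3′, for PCIF1, for the gene that stood furthest from control (METTL4), for CMTR1, which shares a motif with METTL4, and for the 3 starts with A. The single capital near the right end is the start base, and longer runs of capitals are the motif matches described next.
PCIF1, chr20:45934623-45934692, plus strand: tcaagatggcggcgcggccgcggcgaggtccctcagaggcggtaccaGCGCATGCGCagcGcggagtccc
METTL4, chr18:2571496-2571565, minus strand: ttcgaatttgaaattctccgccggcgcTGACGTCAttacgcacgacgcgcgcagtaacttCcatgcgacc
CMTR1, chr6:37433161-37433230, plus strand: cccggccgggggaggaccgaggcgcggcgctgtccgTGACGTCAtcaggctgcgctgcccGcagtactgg
RAMAC, chr15:82986150-82986219, plus strand: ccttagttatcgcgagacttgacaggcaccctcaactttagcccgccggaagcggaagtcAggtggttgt
CMTR2, chr16:71289713-71289782, minus strand: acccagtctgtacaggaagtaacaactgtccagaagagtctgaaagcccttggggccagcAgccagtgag
NUDT16, chr3:131381611-131381680, plus strand: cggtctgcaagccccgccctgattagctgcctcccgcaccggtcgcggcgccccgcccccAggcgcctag

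Each 300-base promoter, 250 bases before the start and 50 from it on, was searched on both strands for 4 short motifs. The cAMP response element TGACGTCA was found in METTL4, with its left end 33 bases before the start, and in CMTR1, 24 bases before the start; 1.85% of all 35116 promoters hold it. The NRF1 core GCATGCGC was found in PCIF1 alone of the 9 matched genes, as 2 overlapping matches on opposite strands 13 and 11 bases before the start, and 3.05% of all promoters hold it. CCAAT was present at 7 of the 11 starts, against 34.6% of all promoters, and DCP2 had 5 copies. The promoters of the 2 NUDT16 starts overlap and share 1 CCAAT site, so these 2 starts are not independent. TATAAA was present at 1 of the 11, the upstream start of CMTR2, against 11.5% of all. These matches describe the letters of the reference sequence, and no binding was measured here.

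Every level below is a mean over the libraries of a group that the authors had normalized and averaged. A group thus has 1 value and no error, so differences could not be set against the spread of replicates, no test was run and no gene is called changed. The depth of the single libraries is also unknown. The table gives normalized counts per kb of gene length, used here to compare levels between genes; multiplied by the length they give the normalized count of a gene, used for ratios between groups. Log2 ratios were taken after adding a pseudocount of 1, over the 17149 genes whose mean count reached 10, and all 10 genes passed that floor. Of the melanocyte and melanoma markers checked, MITF had 142.0 counts in clone 1, 259.2 in clone 2 and 168.5 in control, and PMEL had 21.3, 23.8 and 48.4 counts in the same order. The other 6 of 8 stayed under 10 counts in all 3 groups, with the melanocyte enzyme gene TYR listed at 0 throughout and SOX10 listed at 0 in clone 1 and control. All 3 keratinocyte and all 4 blood markers were under 10 counts as well, while 2 of 5 fibroblast markers, PDGFRB and COL1A1, were above it in every group.

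The genes differed widely in level, per kb. RNMT was the highest of the 10 in each group, with 169.89 normalized counts per kb in clone 1, 175.24 in clone 2 and 175.17 in control, above 95.4% of compared protein-coding genes in control. PCIF1 came next in each group, at 83.74, 74.33 and 74.39 per kb in clone 1, clone 2 and control. FTO was the lowest in each, at 6.22, 6.77 and 6.63 per kb, above 11.8% of protein-coding genes in control. In between, CMTR2 (29.00, 29.64 and 33.22) and CMTR1 (20.14, 21.86 and 24.00) held ranks 6 and 7 in all 3 groups. METTL4 was rank 5 in both clones and rank 3 in control, with DCP2 and NUDT16 above it in the clones and below it in control. RNGTT and RAMAC exchanged ranks 8 and 9 in clone 2. With no spread between libraries, it could not be said which neighbours in this order differ beyond their error.

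**Figure D1:**
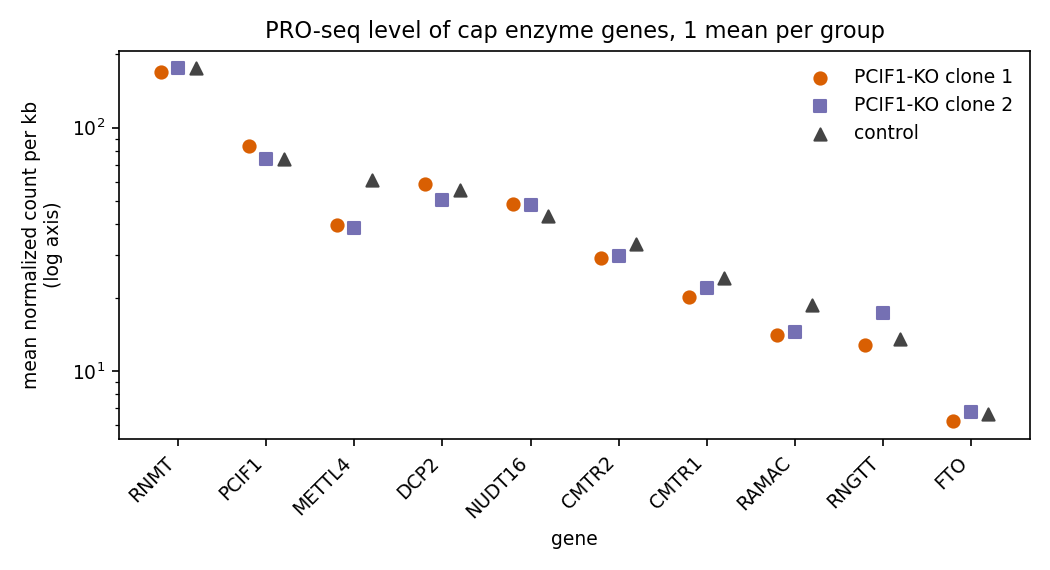
PRO-seq level of the 10 genes as mean normalized count per kb (log axis), with 1 point per group: clone 1 (circles), clone 2 (squares) and control (triangles); genes run from high to low level in control. RNMT lies near 170 per kb or above in each group and FTO below 7, and METTL4 is the gene whose 2 clone points (39.87 and 38.54) sit furthest below its control point (60.63).

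For 64.4% of the matched genes the length in the table equals that of the merged exons, so long introns may add nothing to these levels. The share of a gene that this length covers varied. It was 98.2% of the gene span for NUDT16 and 91.1% for CMTR2, which are compact genes, 32.3% for RAMAC, 24.1% for PCIF1, 21.9% for DCP2, 18.4% for RNMT, 16.8% for METTL4 and 10.6% for CMTR1. It was 4.68% for FTO, whose span is 456821 bases, and 1.39% for RNGTT with a span of 353722 bases. The 2 genes of lowest coverage were also the lowest and, in control and clone 1, the second lowest in level per kb; the part of this in the order of levels was not tested.

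Across the 10 genes together, the clones stayed near control. The median log2 ratio was -0.09 in clone 1 and -0.07 in clone 2, against 0.00 over all 17149 genes in each comparison. In clone 1, 7 of the 10 genes lay within 0.25 of control on the log2 scale, as did 59.4% of all genes, and in clone 2 also 7, against 49.2% of all genes. A single gene, METTL4, was at least 1.5-fold lower in both clones, and none was at least 1.5-fold higher. Among all compared genes the share at least 1.5-fold lower was 4.94% for clone 1 and 7.23% for clone 2, and the share at least 1.5-fold higher was 6.93% and 9.76%. In either direction 11.9% and 17.0% of all genes passed this fold, so 1 gene of 10 in each clone is near the background. None of the 10 was at least 2-fold off, against 3.59% of all genes in clone 1 and 5.23% in clone 2. The clones share 1 control mean, and a control value that is off would move both ratios of a gene.

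PCIF1 (ENSG00000100982; GRCh38 chromosome 20, 45934683 to 45948023, plus strand), the targeted gene, had 269.6 normalized counts in clone 1, 239.3 in clone 2 and 239.5 in control. The clone 2 and control means were nearly the same and clone 1 was 1.13-fold higher, a log2 ratio of 0.17; 28.1% of all compared genes had a ratio at least as high. The count rests on a length that is 24.1% of the gene span. A small lesion in the coding sequence need not show in this count, which does not check the labels. The 20 compared genes nearest to PCIF1, 10 on each side, had a median log2 ratio of -0.10 in clone 1 and -0.06 in clone 2. PCIF1 was 0.27 above that median in clone 1 and 0.06 above it in clone 2.

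Of the genes that form the cap, RNGTT (ENSG00000111880; chromosome 6, 88609897 to 88963618, minus strand), the triphosphatase and guanylyltransferase, had 62.8 counts in clone 1, 84.6 in clone 2 and 66.5 in control. Clone 2 alone stood above control, at a log2 ratio of 0.34, against -0.08 in clone 1. Between the clones this was the largest difference of the 10 genes, with clone 2 above clone 1 by 0.42, and none of the 20 genes beside RNGTT had a higher ratio of clone 2 to clone 1. The central 95% of that ratio was -0.61 to 0.69 for the 5907 genes within 2-fold of its mean count. No member was 1.5-fold off between the clones, against 8.17% of all genes in either direction.

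RNMT (ENSG00000101654; chromosome 18, 13726660 to 13764556, plus strand), the guanosine methyltransferase, had 1186.2 counts in clone 1, 1223.5 in clone 2 and 1223.0 in control. Its log2 ratios of -0.04 and 0.00 placed it close to control in both clones, and the first was the smallest in size of the 10 genes in clone 1. RAMAC (ENSG00000169612; chromosome 15, 82986210 to 82991057, plus strand), its activating subunit, had 22.0, 22.7 and 29.1 counts in clone 1, clone 2 and control. Both clones were lower, with log2 ratios of -0.39 and -0.35, within the central 95% of genes of like count (-1.14 to 1.41 in clone 1 and -1.20 to 1.63 in clone 2). RAMAC shares 2617 of its 4848 bases with C15orf40, a gene on the opposite strand with 475.7, 481.4 and 558.1 counts. The sources used here do not give the strand setting of the counting, so reads of these 2 genes may not have been told apart. The intronless copy RAMACL had 0.542 counts in clone 1, was listed at 0 in clone 2 and had 1.45 in control.

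The ribose methyltransferase genes were both slightly lower in each clone. CMTR1 (ENSG00000137200; chromosome 6, 37433219 to 37482827, plus strand) had 106.2 counts in clone 1, 115.3 in clone 2 and 126.6 in control, log2 ratios of -0.25 and -0.13. CMTR2 (ENSG00000180917; chromosome 16, 71281389 to 71289715, minus strand) had 219.9, 224.7 and 251.9 counts, log2 ratios of -0.20 and -0.16. For both genes these ratios lay inside the central 95% of genes of like count, and 19.1% and 24.5% of all genes were as low or lower in clone 1. All 5 genes from RNGTT to CMTR2 were below control in clone 1 and 3 of 5 in clone 2, with medians of -0.20 and -0.13. The median over all compared genes was 0.00 in each clone, and RNMT (-0.04) and RNGTT (-0.08) were close to control in clone 1. Each of the 5 genes lay inside the central 95% of genes of like count in both clones.

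METTL4 (ENSG00000101574; chromosome 18, 2537525 to 2571509, minus strand) had 228.2 counts in clone 1, 220.6 in clone 2 and 347.0 in control. Both clones were lower and close to each other: the log2 ratios were -0.60 and -0.65, or 0.659-fold and 0.637-fold of control, and clone 2 differed from clone 1 by -0.05. Of all genes, 4.59% were as low or lower in clone 1 and 5.73% in clone 2. The ratio lay below the central 95% of the 6296 genes within 2-fold of its mean count in clone 1 (-0.48 to 0.63) and in clone 2 (-0.56 to 0.79). Its head-to-head neighbour NDC80, a kinetochore gene that begins 48 bases from the end of the METTL4 annotation on the opposite strand, was also lower, with 387.8, 304.9 and 506.4 counts in clone 1, clone 2 and control (log2 ratios of -0.38 and -0.73).

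The surroundings of METTL4 were lower as well. The 20 compared genes around it had a median log2 ratio of -0.57 in clone 1 and -0.73 in clone 2, and 19 of the 20 were below control in each clone. METTL4 differed from that median by -0.04 in clone 1 and by 0.08 in clone 2. With the median of these 20 genes subtracted, METTL4 was no longer 1.5-fold off in either clone, and neither was any other of the 10 genes with its own 20. That count depends on the window. With 5 genes on each side, the medians around RNMT were -1.07 and -1.14. RNMT (-0.04 and 0.00) was then over 1.5-fold higher than its surroundings in both clones. Most genes of that window had low counts, such as the pseudogene SNX19P3, listed at 0 in both clones with 36.7 counts in control. Of its genes with higher counts, CEP192 had ratios of -0.49 and -0.62 and CEP192-DT 0.06 and 0.34. FAM210A and ZNF519, also of that window, are given below. METTL4 and RNMT lie on the same arm, the short arm of chromosome 18, with starts 11.2 Mb apart. The other 91 compared genes of that arm, from 158383 to 14974215, had a median log2 ratio of -0.51 in clone 1 and -0.60 in clone 2, with 81 and 84 of them below control. In clone 1, 37 of them were at least 1.5-fold lower, and in clone 2, 46. Among all compared genes, 4.94% and 7.23% were at least 1.5-fold lower. The copy number of this arm was not measured.

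RNMT did not share the lower level of that arm. Its log2 ratio of -0.04 in clone 1 was exceeded by 10 of the 91 genes and its ratio of 0.00 in clone 2 by 7, and 7 genes exceeded it in both clones. The quartiles of the 91 genes were -0.69 and -0.33 in clone 1 and -0.88 and -0.37 in clone 2. FAM210A, which begins beside RNMT on the opposite strand and overlaps it by 4 bases, had 306.1, 308.6 and 351.1 counts in clone 1, clone 2 and control, log2 ratios of -0.20 and -0.19. By start, the nearest compared entry on that side was RN7SL362P, inside the FAM210A span. It had low counts (8.74, 9.13 and 18) and log2 ratios of -0.96 and -0.91. On the other side the nearest compared gene, the zinc finger gene ZNF519, had 259.2, 200.0 and 348.9 counts, log2 ratios of -0.43 and -0.80. The 10 genes on each side of RNMT reach across the centromere, and their median was -0.45 in clone 1 and -0.48 in clone 2. Set against the median of the 91 short-arm genes, RNMT was higher by 0.47 in clone 1 and by 0.60 in clone 2, the second of which is over 1.5-fold.

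**Figure D2:**
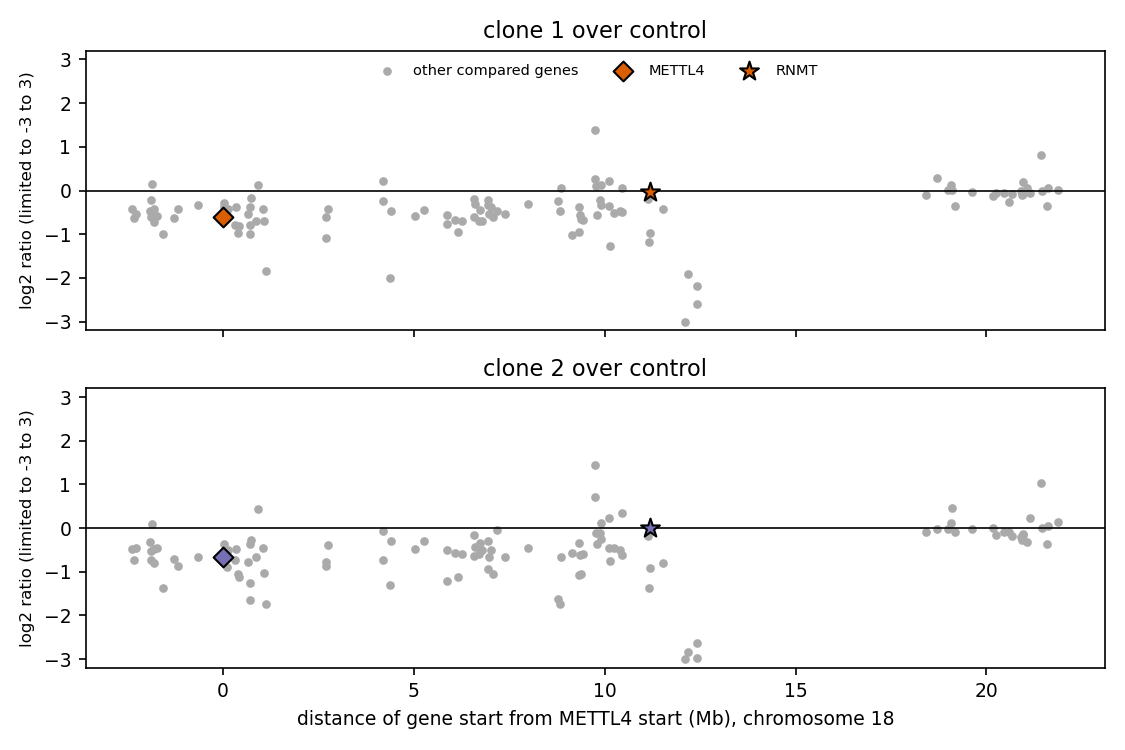
Log2 ratio to control of the compared genes at the start of chromosome 18, against the distance of their starts from METTL4 in Mb; clone 1 is above and clone 2 below, ratios beyond -3 or 3 are drawn at that limit, and each point is 1 gene. METTL4 (diamond, -0.60 and -0.65) sits among lower neighbours, RNMT (star, -0.04 and 0.00) sits near the upper edge of the arm, and genes past the gap of the centromere lie around 0.

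Of the genes that remove methyl groups or caps, FTO (ENSG00000140718; chromosome 16, 53701692 to 54158512, plus strand) had 133.0 counts in clone 1, 144.7 in clone 2 and 141.7 in control, log2 ratios of -0.09 and 0.03. The level was thus nearly equal in the 3 groups. DCP2 (ENSG00000172795; chromosome 5, 112976702 to 113022195, plus strand), the catalytic decapping subunit, had 582.1, 501.4 and 550.1 counts. It was above control in clone 1 (0.08) and below it in clone 2 (-0.13), and 19 of the 20 genes beside it had higher ratios in clone 2. NUDT16 (ENSG00000198585; chromosome 3, 131381671 to 131388830, plus strand) had 339.9, 338.7 and 303.3 counts, a log2 ratio of 0.16 in each clone, close to the medians of its surroundings (0.17 and 0.21). Its divergent noncoding partner NUDT16-DT had 31.2, 39.4 and 24.7 counts, log2 ratios of 0.32 and 0.65.

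**Figure D3:**
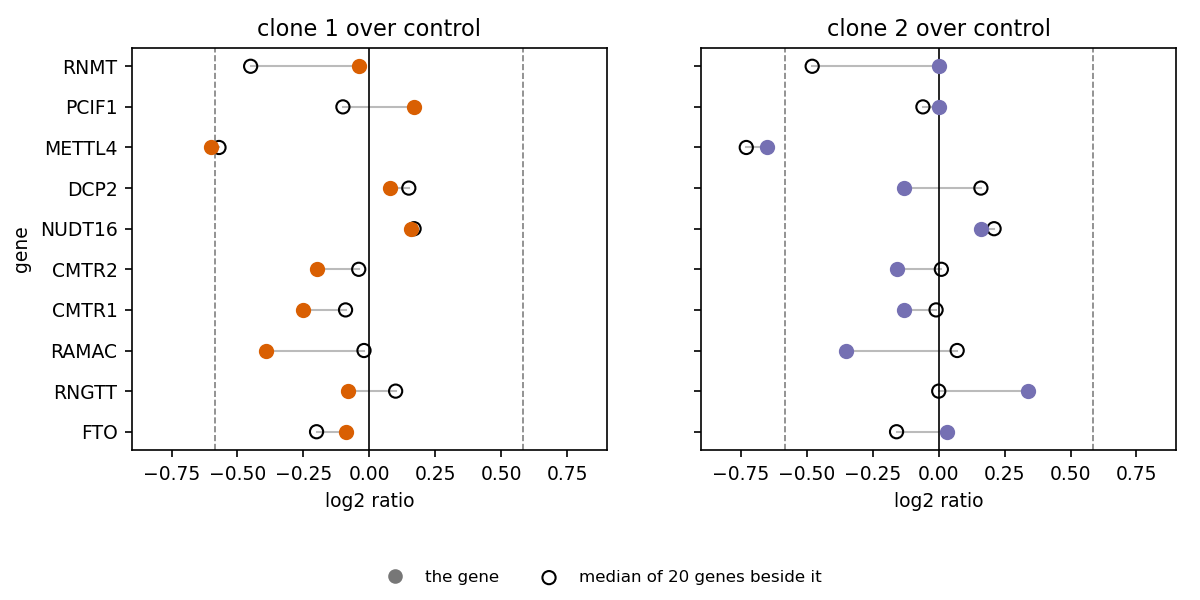
Log2 ratio to control of each of the 10 genes (filled) beside the median of the 20 compared genes around it (open), for clone 1 on the left and clone 2 on the right; dashed lines mark 1.5-fold. METTL4 and its surroundings lie together at or near the lower line, RNMT lies 0.40 and 0.48 above its surroundings, and RAMAC lies 0.36 and 0.42 below its own.

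The genes whose pattern over the 3 group means was most like that of PCIF1 were sought among 10127 other protein-coding genes whose mean count reached 50, by the larger of the differences in the 2 log2 ratios to control. SDC1, RSPH6A, U2SURP, ATP6V1H and ARHGEF17 lay within 0.0077 of PCIF1. SDC1, which encodes the cell surface proteoglycan syndecan, had 329.6 counts in clone 1, 292.0 in clone 2 and 292.9 in control. For METTL4 the 5 nearest were IGSF9B, NDUFV2, CNPY2, PPP1R3F and CIITA, within 0.039. NDUFV2, a subunit gene of mitochondrial complex I with 296.6, 289.5 and 448.8 counts, is also on chromosome 18. For RNMT they were MCM3AP, EXOC2, PEX14, UQCRQ and RUBCN, within 0.0047. Likeness here rests on 3 means per gene and is a description.

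Around these enzymes, 36 further genes were examined. They cover cap binding, decapping, cap sensing, other cap methylation and small RNA export, recruitment of capping enzymes and m6A methylation. Of the 36 genes, 35 reached the floor, and the cap-binding gene EIF4E3 did not. Their median log2 ratio was 0.00 in clone 1 and 0.01 in clone 2, with 18 and 19 genes above control and 17 and 16 below. Without the 3 recruitment and the 3 m6A genes, a shorter list drawn after their values were seen, the medians of the 29 others were 0.12 and 0.15, with 17 and 18 above control. In each clone 1 gene was at least 1.5-fold higher and none at least 1.5-fold lower, against 6.93% and 4.94% of all genes in clone 1 and 9.76% and 7.23% in clone 2. The gene was IFIT1 in both, an interferon-induced protein that binds RNA whose cap lacks ribose methylation. It had 82.2 counts in clone 1, 75.8 in clone 2 and 41.2 in control, log2 ratios of 0.98 and 0.86. Of all compared genes, 2.37% were as high or higher in clone 1 and 4.45% in clone 2. In both clones IFIT1 lay inside the central range of the 5778 genes of like count. That range, taken as for the enzymes above, was -0.75 to 1.0 in clone 1 and -0.87 to 1.2 in clone 2. The relatives and neighbours of IFIT1 differed among themselves. IFIT3 had 186.7 counts in clone 1, 167.5 in clone 2 and 116.4 in control, log2 ratios of 0.68 and 0.52, and IFIT2 had 101.1, 97.9 and 77.5 counts, ratios of 0.38 and 0.33. IFIT5 had 175.0, 234.7 and 188.4 counts, log2 ratios of -0.11 and 0.32. The median of the 20 genes around IFIT1 was 0.02 in clone 1 and 0.40 in clone 2. The annotated span of the lipase gene LIPA covers IFIT1, IFIT2 and IFIT3, so reads may not have been told apart there either; LIPA had 510.1, 576.0 and 402.8 counts, ratios of 0.34 and 0.51.

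By the mean of both clones, EIF4E2, EIF4EBP1 and NCBP2 came next in this list. EIF4E2, a cap-binding protein of translational repression, had 456.4 counts in clone 1, 467.6 in clone 2 and 315.1 in control, log2 ratios of 0.53 and 0.57, and the 20 genes around it on chromosome 2 had medians of 0.60 and 0.52. EIF4EBP1, an inhibitor of the cap-binding factor EIF4E, had 239.1, 270.0 and 194.7 counts, ratios of 0.29 and 0.47, beside surroundings at 0.05 and -0.05. NCBP2, the small subunit of the nuclear cap-binding complex, had 319.6, 389.1 and 273.4 counts, ratios of 0.22 and 0.51, beside surroundings at -0.02 and -0.14. Of the 7 compared genes of cap binding and translation, 4 were above control in each clone, with medians of 0.22 and 0.35. Within 0.25 of control lay 4 of the 7 in clone 1 and 1 in clone 2, against 59.4% and 49.2% of all genes. The 5 genes of other cap methylation and small RNA export had medians of 0.13 and 0.15, with 3 above control in each clone. The 15 decapping and decay genes had medians of 0.09 and 0.02, with 9 above control in each clone and ratios from -0.35 to 0.41. The 3 genes that bring capping enzymes to transcription, POLR2A, CDK7 and SUPT5H, were all below control in both clones, by ratios between -0.32 and -0.11. Each of these ratios lay inside the central range of genes of like count, taken as above. The share of all compared genes as low or lower ran from 18.9% (CDK7 in clone 2) to 37.3% (SUPT5H in clone 2). The m6A enzyme genes METTL3, METTL14 and ALKBH5 lay between -0.17 and 0.01.

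**Figure D4:**
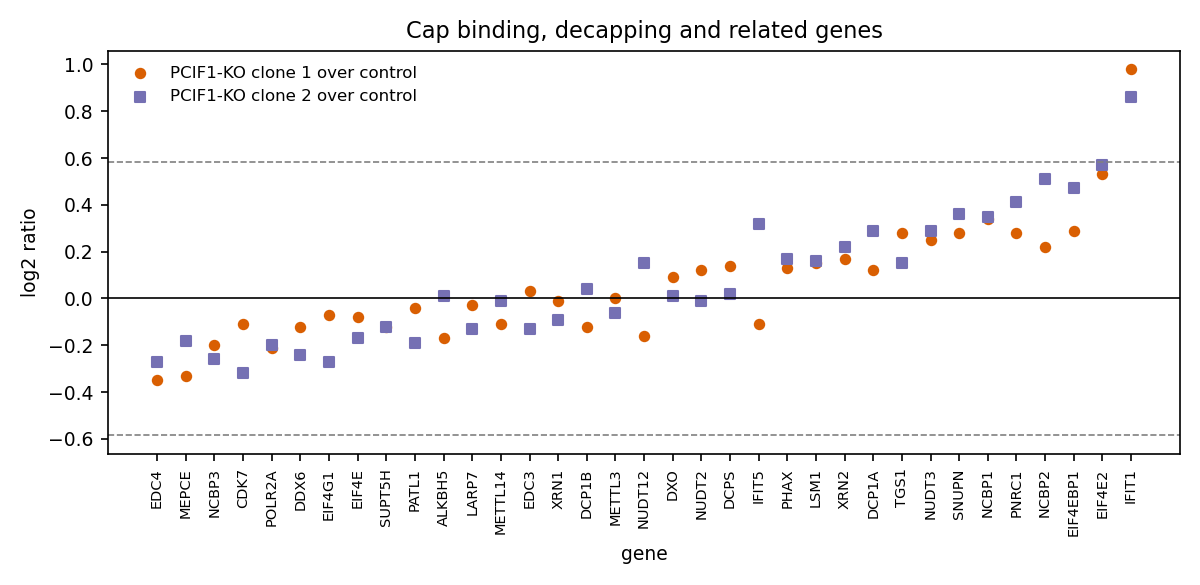
Log2 ratio to control of the 35 compared genes of cap binding, decapping and related steps, for clone 1 (circles) and clone 2 (squares), ordered by the mean of both clones; dashed lines mark 1.5-fold. IFIT1 alone lies above the upper line, at 0.98 and 0.86, EIF4E2 lies just under it, and no gene reaches the lower line.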

How the data were processed

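PRO-seq libraries of 3 groups (9 libraries in all) were represented by 1 table of group means. Per the file header, the authors deposited a mean normalized count per kb for each group, a signal already scaled and averaged, beside a gene length. The header has 6 names and the rows have 5 cells; the cell after the identifier holds a length, so the missing cell is the gene name and the group values are the last 3 cells. Per the submitters' processing notes, cutadapt 1.14, Bowtie 1.2.2, featureCounts and DESeq2 were used, and the builds named are hg38, dm3 and GRCh38.p12; what each was used for is not stated there. Whether the Drosophila spike-in set the scale is not given in the sources used here; if it did not, a difference common to all genes is not visible.

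Values were multiplied by length in kb, and log2 ratios were taken after adding 1. Genes whose mean count reached 10 were compared. Identifiers were matched to GENCODE release 44 (57754 of 58336), where 64.4% of lengths equal the merged exons. Surroundings are the 10 compared genes on each side by start. A moderated test had been planned only for values per library, which the table does not hold. The fold calls were tested on simulated data. Members, lists and thresholds were chosen with earlier results of these data known. Named genes are the 10 members, direct neighbours and the nearest 5 in pattern. From the wider list, those past 1.5-fold or among the 4 largest mean ratios are named. Others were named in addition, after their values were seen. These are IFIT2, IFIT3, IFIT5, LIPA, EIF4E3, SNX19P3, CEP192, CEP192-DT and the recruitment, m6A, overlapping and marker genes. Alternatives were other scalings, pseudocounts of 0.5 and 5, no floor, a floor of 50, values per kb, and 5 or 25 genes on each side. Python 3.11.15, numpy 2.4.6, pandas 2.3.3 and matplotlib 3.10.9 were used.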

Additional observations from a re-analysis of the deposited data

How the results depend on the processing

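With 1 mean per group, leaving out a replicate was not possible. No paired analysis was possible because the deposited values are group means that carry no replicate. A value counts as moved when it differs by 0.1 or more (log2), a count when it differs by over 1.5 times. The 204 alternative values of the 30 single-gene ratios all stayed within 0.1, and so did the medians of both lists; FTO has no value per kb, where it misses the floor, nor has RAMAC with the floor of 50. METTL4 ran from -0.62 to -0.59 in clone 1 and from -0.70 to -0.64 in clone 2. The count of members at least 1.5-fold off was 1 in each clone (METTL4). With the median of 10 genes on each side subtracted it was 0 in each. With 25 on each side it was 0 in each and with 5 it was 1 in each (RNMT), both added after seeing the data.

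The background moved with the floor, which also sets how many genes are compared (17149 as reported). With no floor, of 58336 genes, 7927, 9096 and 6896 genes were at least 1.5-fold off (clone 1 to control, clone 2 to control, clone 2 to clone 1) and 2838, 3623 and 2176 at least 2-fold; with a floor of 50, of 11917 genes, these were 773, 1287 and 434, and 170, 293 and 64. As shares at 1.5-fold, these are 13.6%, 15.6% and 11.8% with no floor and 6.49%, 10.8% and 3.64% with 50, against 11.9%, 17.0% and 8.17% as reported. At 2-fold between the clones, a pseudocount of 5 gave 224 and values per kb 600 (of 16256).

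Medians of surroundings depend on the window. For RNMT they were -1.07 and -1.14 with 5 genes on each side and -0.16 and -0.20 with 25, and -0.60 in clone 2 over the short arm, an alternative added after seeing the data; between the clones it was -0.16 with 5. Most genes in the window of 5 on each side of RNMT had low counts. With 5 genes, in clone 1 CMTR2 had -0.18, and in clone 2 PCIF1 had -0.20, CMTR1 -0.13 and DCP2 0.04. With 25, FTO had -0.02 in clone 1, and in clone 2 RNGTT had 0.19, RAMAC -0.03 and NUDT16 0.09. Between the clones PCIF1 had -0.04 with 5 and -0.05 with 25, and NUDT16 -0.06 with 25. The cause was not tested.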

Other observations

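Besides RNMT, 7 compared genes of the short arm of chromosome 18 had ratios above those of RNMT in both clones; 3 of them are given here, chosen after their values were seen. ENOSF1, which overlaps the thymidylate synthase gene TYMS on the opposite strand, had 1625.8 counts in clone 1, 1566.4 in clone 2 and 1466.4 in control (log2 ratios of 0.15 and 0.10), whereas TYMS had 499.9, 455.2 and 757.2 (-0.60 and -0.73). PSMG2, a chaperone gene of proteasome assembly, had 489.6, 497.4 and 423.4 counts (0.21 and 0.23). CEP76, whose annotated span lies inside that of PSMG2, had 464.7, 432.3 and 594.8 (-0.36 and -0.46). The strand setting of the counting is not given, so reads of such overlapping genes may not have been told apart. The noncoding CEP192-DT had 369.9, 448.8 and 355.5 counts (0.06 and 0.34), while CEP192, which it begins beside, had 831.2, 762.8 and 1171.6 (-0.49 and -0.62). In each of these 3 pairs the partners of the same locus lay on different sides of control in both clones. The choice largely set this pattern, because the 3 genes were picked for ratios above those of RNMT. Of the 91 compared genes of the arm besides METTL4 and RNMT, 81 were below control in clone 1 and 84 in clone 2.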
